A study of Mus musculus with 10 samples.

Results

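The genes of mitochondrial fusion and fission were examined in the gastrocnemius of smoke-exposed mice with an intact aryl hydrocarbon receptor (AHR) and of mice bred for its deletion in myofibres. The group holds 10 genes, chosen by symbol in the GRCm38 annotation (*Mfn1*, *Mfn2*, *Opa1*, *Dnm1l*, *Fis1*, *Mff*, *Mief1*, *Mief2*, *Oma1* and *Yme1l1*). Each of the 10 was found once among the 49315 genes of the count table, and all 10 had enough counts to be tested. RNA was sequenced from 10 male mice, 5 AHRfl/fl and 5 AHRmKO, each of which was taken as 1 replicate. AHRfl/fl mice carry floxed *Ahr* alleles on a C57BL6J background and lack Cre. AHRmKO mice carry the same floxed alleles and the HSA-MCM transgene, a tamoxifen-dependent Cre recombinase under the human skeletal actin promoter so that tamoxifen is meant to delete the receptor in myofibres while the other cells of the muscle keep it. Whether AHRfl/fl mice received tamoxifen too was not stated plainly in the sources used here. All 10 mice had been exposed to cigarette smoke for 16 weeks, in repeated daily sessions of 1 h on 5 days per week. The mean was 220 ± 80 mg/m3 of tobacco smoke. The labels of the series give a harvest 72 h after the last exposure, and the study's text gives a range of times that ends there. By that time, according to the study, AHR activation is back at its baseline, so the comparison does not cover the hours of activation. No air-exposed muscle was analysed here, and the age of the mice is not given in the labels. The comparison asks whether this genotype in smoke-exposed muscle goes with a different level of these mRNAs.

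Mitochondria in a myofibre form a network that is joined by fusion and cut by fission. Mitofusins on the outer membrane and OPA1 on the inner membrane, all large GTPases, carry out fusion, and OPA1 is itself cut by the inner membrane proteases OMA1 and YME1L. The GTPase DRP1, encoded by *Dnm1l*, is drawn from the cytosol to the outer membrane by receptors (MFF, FIS1, and MID49 and MID51 from *Mief2* and *Mief1*) and constricts the mitochondrion there. In skeletal muscle, MFN2 is the mitofusin best known for its link to oxidative metabolism, and mitochondrial shape is known to change with activity and with muscle wasting.

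Total counts were between 30393035 and 37954388 per mouse, and no pair of libraries was identical. Values are CPM, counts scaled to TMM-normalized library sizes. *Ahr* itself had between 31 and 110 counts, with 2.02 ± 0.681 CPM (SD, n = 5) in AHRfl/fl and 1.58 ± 0.443 CPM (SD, n = 5) in AHRmKO muscle (adjusted p = 0.844, edgeR's quasi-likelihood test). Only exon 2 is flanked by loxP sites, and the counts sum all exons and the RNA of all cell types, so this value checks the deletion only in part. The study itself reports DNA editing in skeletal muscle alone, from PCR and quantitative PCR. The mice differed widely in slow-fibre transcripts. All 8 slow-fibre markers, *Myh7* among them, were detected in every mouse, with a summed level between 94.8 and 2019 CPM in AHRfl/fl and between 252 and 2395 CPM in AHRmKO muscle. The 7 fast-fibre markers, which mark most fibres of this muscle, summed to between 94562 and 136268 CPM in AHRfl/fl and between 106042 and 129326 CPM in AHRmKO muscle. Of the tested markers, none for adipocytes (4 of 5 tested), satellite cells (2 of 3 tested), Schwann cells, endothelium, macrophages, fibroblasts or erythroid cells differed at an adjusted p under 0.05 in the same test. In whole muscle, fewer cells of a type and less RNA per cell cannot be told apart.

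Promoter windows of the 10 genes were searched for GCGTG, the core of the AHR response element, since the genotypes compared differ in the *Ahr* gene of their myofibres. RefSeq windows of GRCm38.p6, from 250 bases before to 50 after a start site, matched all 10 genes, with 15 windows in all. GCGTG was found on either strand in windows of 4 genes, *Mfn2*, *Dnm1l*, *Fis1* and *Mief2*, or 4 of 10, beside 35.2% of all 27025 genes with a window. By window, it was found in 7 of the 15, beside 32.4% of all 32851. The windows of *Mfn2* overlap, and the same match is counted in each of them, so the windows are not independent. The longer form TNGCGTG was found in 1 window each of *Mfn2* and *Fis1* and in 5.07% of all windows, a form that contains the shorter one and was added after the sequences had been seen. The 4 genes with the core had log2 fold changes of both signs, 0.06 for *Mfn2*, 0.07 for *Dnm1l*, -0.09 for *Fis1* and -0.05 for *Mief2*. The windows of *Mfn2* and *Fis1* are shown because they hold the longer form, and that of *Yme1l1* because it had the lowest p and holds neither form. Capitals mark GCGTG or its reverse complement CACGC, and base 251 is the start site.
Mfn2 chr4:147904860-147905159 (minus strand): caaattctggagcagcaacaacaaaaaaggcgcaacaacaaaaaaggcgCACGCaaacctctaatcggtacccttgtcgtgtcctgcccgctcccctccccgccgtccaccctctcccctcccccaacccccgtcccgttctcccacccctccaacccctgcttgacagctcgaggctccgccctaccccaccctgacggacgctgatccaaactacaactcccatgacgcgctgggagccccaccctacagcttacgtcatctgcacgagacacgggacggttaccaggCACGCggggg
Fis1 chr5:136953025-136953324 (plus strand): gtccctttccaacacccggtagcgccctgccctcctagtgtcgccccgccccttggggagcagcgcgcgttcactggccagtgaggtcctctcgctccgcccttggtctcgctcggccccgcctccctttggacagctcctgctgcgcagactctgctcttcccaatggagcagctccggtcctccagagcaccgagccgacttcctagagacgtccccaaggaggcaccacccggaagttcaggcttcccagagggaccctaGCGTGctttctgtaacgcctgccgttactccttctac
Yme1l1 chr2:23156255-23156554 (plus strand): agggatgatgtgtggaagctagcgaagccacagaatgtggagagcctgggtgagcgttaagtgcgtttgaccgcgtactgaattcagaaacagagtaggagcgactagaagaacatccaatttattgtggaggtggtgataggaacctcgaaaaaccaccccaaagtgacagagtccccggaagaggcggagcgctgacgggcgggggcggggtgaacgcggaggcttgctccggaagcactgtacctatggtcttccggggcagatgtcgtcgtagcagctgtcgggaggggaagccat
In *Mfn2* the matches begin at bases 50 and 291 of the window, both on the reverse strand, and in *Fis1* at base 264, on the strand shown.

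By edgeR's quasi-likelihood F-test, none of the 10 genes differed between the genotypes once p-values were adjusted (threshold 0.05), and 1 of the 10, *Yme1l1*, had an unadjusted p under 0.05. Over all 14714 genes tested, 0.0068% (1 gene) passed at the adjusted threshold and 6.61% at the unadjusted one (3.23% higher in AHRmKO), so that 1 of 10 is near the background. Of the 972 genes with an unadjusted p under 0.05, 475 were higher and 497 lower in AHRmKO muscle, and without TMM normalization 330 were higher and 732 lower. The DESeq2 Wald test passed 0 of the 10 genes at an adjusted p under 0.05, against 0.193% of genes, and limma-voom also passed 0. The genotypes overlapped in all 10 genes, whereas they did not overlap in 1.4% of genes tested (0.686% with AHRmKO higher). By sign alone, 5 of the 10 were higher and 5 lower in AHRmKO muscle, where 51.5% of all genes tested were higher, with a median log2 fold change of 0.02, beside 0.0056 over all genes tested.

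The precision of these values bounds the differences. The log2 fold changes of the 10 genes ran from -0.09 (*Fis1*) to 0.13 (*Yme1l1*). The ends of their 95% intervals ran from -16.1% (*Fis1*) to 18.6% (*Yme1l1*) relative to the AHRfl/fl level. Within a genotype the coefficient of variation between mice was 4.12% to 10.8% in AHRfl/fl and 3.7% to 11.9% in AHRmKO muscle, with medians of 6.56% and 7.04% beside 13.2% and 14.2% over all genes tested. Counting error is part of this spread and was smaller than it, between 0.674% (*Mfn2*) and 3.68% (*Mief1*) of the mean count. In *Mief1* it was near the whole spread of AHRfl/fl muscle, 4.12%, and that of AHRmKO muscle was 5.62%. The lowest count of any of the 10 genes in any mouse was 651, in *Mief1*.

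**Figure D1:**
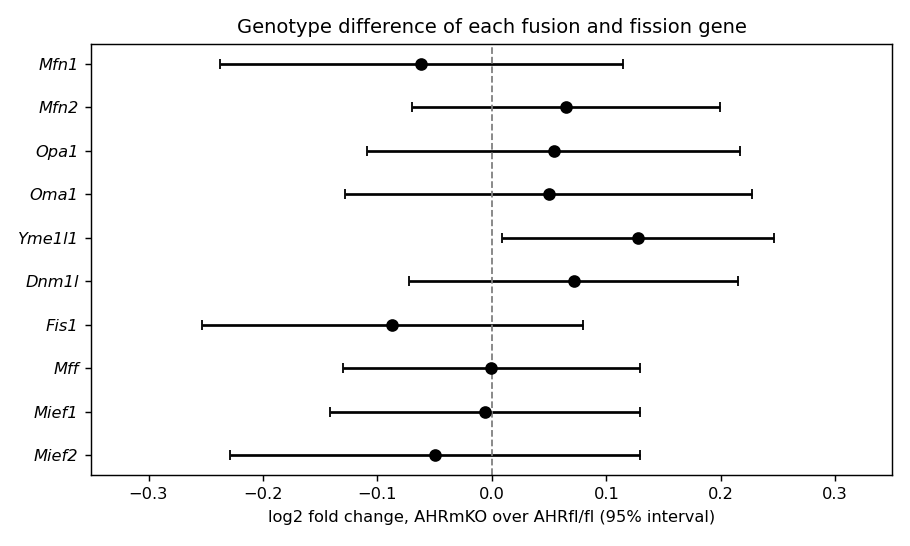
Log2 fold change of each fusion and fission gene, AHRmKO over AHRfl/fl (points), with its 95% interval from edgeR's quasi-likelihood fit (bars), 5 mice in each genotype. The interval of *Yme1l1* lies above 0, from 0.0088 to 0.25, and the intervals of the other 9 genes include 0.

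*Mfn1* and *Mfn2* encode the mitofusins, the GTPases that tether and fuse outer membranes. *Mfn2* (ENSMUSG00000029020, chromosome 4 from 147873599 to 147904704, minus strand) was the most abundant of the 10 genes. *Mfn2* CPM in AHRfl/fl muscle were 603 in mouse 11, 577 in mouse 12, 651 in mouse 13, 601 in mouse 15 and 608 in mouse 33. In AHRmKO muscle they were 619.7 in mouse 8, 687 in mouse 9, 618 in mouse 19, 621 in mouse 22 and 635 in mouse 34. Every AHRmKO mouse was above the AHRfl/fl mean, but AHRfl/fl mouse 13 was above 4 of the 5 AHRmKO mice. The means were 608 ± 26.7 CPM (SD, n = 5) in AHRfl/fl and 636 ± 29 CPM (SD, n = 5) in AHRmKO muscle. This is a log2 difference of 0.06 between genotypes (standard error 0.0624, 95% interval -0.07 to 0.20). This difference passed neither test (edgeR's adjusted p = 0.887, exact permutation p = 0.159, two-sided). Mouse 9 of the AHRmKO group was highest, and without it the log2 fold change was 0.04, the lowest with any mouse left out, while the highest was 0.09, without AHRfl/fl mouse 13.

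*Mfn1* (ENSMUSG00000027668, chromosome 3 from 32529465 to 32579239, plus strand) had the opposite sign. *Mfn1* CPM in AHRfl/fl muscle were 225 in mouse 11, 189.5 in mouse 12, 234 in mouse 13, 253 in mouse 15 and 246 in mouse 33. The AHRmKO values were 239 in mouse 8, 226 in mouse 9, 216 in mouse 19, 217 in mouse 22 and 201 in mouse 34. AHRfl/fl mouse 12 was the lowest of all 10 mice and AHRfl/fl mouse 15 the highest, so that the AHRmKO mice lay inside the AHRfl/fl range. The means were 229 ± 24.8 CPM (SD, n = 5) in AHRfl/fl and 219.8 ± 14 CPM (SD, n = 5) in AHRmKO muscle, with a log2 difference of -0.06 between genotypes (standard error 0.0816, 95% interval -0.24 to 0.11). It did not pass the test (adjusted p = 0.927, edgeR; exact permutation p = 0.508, two-sided). With 1 mouse left out the log2 fold change ran from -0.12 (without AHRfl/fl mouse 12) to -0.02 (without AHRfl/fl mouse 15), was -0.04 without AHRfl/fl mouse 33, -0.09 without AHRmKO mouse 8 and -0.03 without AHRmKO mouse 34, and passed in no case. Adjusted for slow-fibre scores it was -0.10. Set per length, *Mfn2* was 2.8 to 3.71 times *Mfn1* in each mouse, with a mean ratio of 3.15 ± 0.31 (SD, n = 5) in AHRfl/fl and 3.42 ± 0.252 (SD, n = 5) in AHRmKO muscle, and the ranges of the genotypes overlapped.

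*Opa1* (ENSMUSG00000038084, chromosome 16 from 29579334 to 29654884, plus strand) encodes the inner membrane fusion GTPase, which also holds cristae in shape. *Opa1* CPM in AHRfl/fl muscle were 88.7 in mouse 11, 77.5 in mouse 12, 96.4 in mouse 13, 88.9 in mouse 15 and 80.1 in mouse 33. For AHRmKO muscle the values were 95.5 in mouse 8, 98 in mouse 9, 88 in mouse 19, 82.3 in mouse 22 and 84.2 in mouse 34. AHRfl/fl mouse 12 was again lowest, and the ranges of the genotypes overlapped over most of their length. The means were 86.3 ± 7.59 CPM (SD, n = 5) in AHRfl/fl and 89.6 ± 6.9 CPM (SD, n = 5) in AHRmKO muscle, with a log2 difference of 0.05 between genotypes (standard error 0.0755, 95% interval -0.11 to 0.22). The difference passed neither test (edgeR's adjusted p = 0.932, exact permutation p = 0.484, two-sided). The value turned on single mice, from 0.02 without AHRfl/fl mouse 12 to 0.10 without AHRfl/fl mouse 13, with 0.02 without AHRmKO mouse 9, 0.03 without AHRfl/fl mouse 33, 0.03 without AHRmKO mouse 8 and 0.08 without AHRmKO mouse 22. The counts sum the 8 annotated *Opa1* transcripts, so splice forms and the cut forms of the protein are outside this measurement.

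The inner membrane proteases *Oma1* and *Yme1l1*, which cut OPA1, were both higher on average in AHRmKO muscle. *Yme1l1* (ENSMUSG00000026775, chromosome 2 from 23156369 to 23199260, plus strand), the ATP-dependent i-AAA protease, had the lowest p-value of the 10 genes. *Yme1l1* CPM in AHRfl/fl muscle were 60.3 in mouse 11, 63.3 in mouse 12, 57.1 in mouse 13, 61.1 in mouse 15 and 57.4 in mouse 33. In AHRmKO muscle they were 66 in mouse 8, 69.1 in mouse 9, 64.8 in mouse 19, 64.6 in mouse 22 and 62.6 in mouse 34. Of the 5 AHRmKO mice, 4 were above every AHRfl/fl mouse, and the groups overlapped only because AHRmKO mouse 34 was below AHRfl/fl mouse 12. The means were 59.9 ± 2.59 CPM (SD, n = 5) in AHRfl/fl and 65.4 ± 2.42 CPM (SD, n = 5) in AHRmKO muscle, or 9.25% higher in AHRmKO muscle (95% interval 0.613% to 18.6%). This was a log2 difference of 0.13 between genotypes (standard error 0.0551, 95% interval 0.0088 to 0.25), with an unadjusted p of 0.0372 and an adjusted p of 0.72 in edgeR's test. It ranked 757 by p-value among the 14714 genes. The exact permutation test gave p = 0.0159 (two-sided), where the smallest p that 5 mice against 5 allow is 0.00794. Across the 20 alternatives the adjusted p was between 0.467 and 0.994, the log2 fold change stayed between 0.11 and 0.15, and the unadjusted p was under 0.05 in 13 of the 20. With the fit adjusted for slow-fibre scores, the log2 fold change was 0.14.

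*Oma1* (ENSMUSG00000035069, chromosome 4 from 103313812 to 103371868, plus strand), a zinc metalloprotease that acts under stress to the inner membrane, was the least counted gene but *Mief1*. *Oma1* CPM in AHRfl/fl muscle were 26 in mouse 11, 22.2 in mouse 12, 28.2 in mouse 13, 28.9 in mouse 15 and 27.4 in mouse 33. The AHRmKO mice were at 25.1 in mouse 8, 27 in mouse 9, 30.9 in mouse 19, 28.3 in mouse 22 and 26.1 in mouse 34. AHRfl/fl mouse 12 was the lowest of all mice and AHRmKO mouse 19 the highest. The means were 26.6 ± 2.64 CPM (SD, n = 5) in AHRfl/fl and 27.5 ± 2.24 CPM (SD, n = 5) in AHRmKO muscle, with a log2 difference of 0.05 between genotypes (standard error 0.0824, 95% interval -0.13 to 0.23). *Oma1* did not pass either test (adjusted p = 0.949, edgeR; exact permutation p = 0.579, two-sided). The sign rested on AHRfl/fl mouse 12, without which the log2 fold change was -0.0089. It was 0.0078 without AHRmKO mouse 19, 0.08 without AHRmKO mouse 8 and 0.08 without AHRfl/fl mouse 15. Adjusted for slow-fibre scores it was 0.03, and with library size alone in place of TMM it was 0.03. *Yme1l1* had 2.02 to 2.85 times the CPM of *Oma1* in each mouse, a ratio not set per length, and its ranges overlapped between genotypes.

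*Dnm1l* (ENSMUSG00000022789, chromosome 16 from 16312230 to 16358959, minus strand) encodes DRP1, the GTPase that divides mitochondria. *Dnm1l* CPM in AHRfl/fl muscle were 74 in mouse 11, 65.2 in mouse 12, 70.3 in mouse 13, 70.0 in mouse 15 and 68.2 in mouse 33. For AHRmKO muscle the values were 77.3 in mouse 8, 80.8 in mouse 9, 69.5 in mouse 19, 66 in mouse 22 and 71.8 in mouse 34. AHRmKO mice 8 and 9 were above every other mouse and the other 3 AHRmKO mice lay within the AHRfl/fl range. The means were 69.6 ± 3.2 CPM (SD, n = 5) in AHRfl/fl and 73.1 ± 5.97 CPM (SD, n = 5) in AHRmKO muscle, with a log2 difference of 0.07 between genotypes (standard error 0.0667, 95% interval -0.07 to 0.22). The difference did not pass either test (edgeR's adjusted p = 0.884, exact permutation p = 0.294, two-sided). With 1 mouse left out the log2 fold change ran from 0.03 (without AHRmKO mouse 9) to 0.11 (without AHRmKO mouse 22). An antisense gene, *Gm49521*, shares 243 nt of its exons, or 4.67% of their length. Whether the library was stranded is not given in the sources used here, so reads from the opposite strand there cannot be told apart.

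Of the DRP1 receptors, *Fis1* (ENSMUSG00000019054, chromosome 5 from 136953275 to 136966234, plus strand), a small tail-anchored protein of the outer membrane, had the largest negative difference. *Fis1* CPM in AHRfl/fl muscle were 103 in mouse 11, 117 in mouse 12, 101 in mouse 13, 94.2 in mouse 15 and 97.5 in mouse 33. The AHRmKO values were 85 in mouse 8, 92.5 in mouse 9, 107 in mouse 19, 101 in mouse 22 and 97.8 in mouse 34. AHRfl/fl mouse 12 was highest, and AHRmKO mice 8 and 9 were below every AHRfl/fl mouse. The means were 103 ± 8.79 CPM (SD, n = 5) in AHRfl/fl and 96.7 ± 8.33 CPM (SD, n = 5) in AHRmKO muscle, with a log2 difference of -0.09 between genotypes (standard error 0.0773, 95% interval -0.25 to 0.08). Neither test passed (adjusted p = 0.879, edgeR; exact permutation p = 0.302, two-sided). The log2 fold change was -0.04 without AHRfl/fl mouse 12, -0.04 without AHRmKO mouse 8 and -0.12 without AHRmKO mouse 19. Adjusted for slow-fibre scores, the log2 fold change of *Fis1* was -0.05.

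*Mff* (ENSMUSG00000026150, chromosome 1 from 82724890 to 82752394, plus strand), the main outer membrane receptor for DRP1 in many cells, had nearly the same mean in both genotypes. *Mff* CPM in AHRfl/fl muscle were 82.1 in mouse 11, 95.1 in mouse 12, 85.2 in mouse 13, 82.9 in mouse 15 and 83.2 in mouse 33. The AHRmKO mice were at 83 in mouse 8, 83.8 in mouse 9, 85.6 in mouse 19, 84.4 in mouse 22 and 91.7 in mouse 34. In each genotype 4 of the 5 mice lay close together and 1 was higher, AHRfl/fl mouse 12 and AHRmKO mouse 34. The means were 85.7 ± 5.39 CPM (SD, n = 5) in AHRfl/fl and 85.7 ± 3.49 CPM (SD, n = 5) in AHRmKO muscle, with a log2 difference of -0.0004 between genotypes (standard error 0.0602, 95% interval -0.13 to 0.13). It did not pass the test (adjusted p = 0.999, edgeR; exact permutation p = 0.968, two-sided). The sign of this value turned under several alternatives. *C430014B12Rik*, on the opposite strand, shares 195 nt of the exons of *Mff*, or 2.0%.

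*Mief1* and *Mief2* encode MID51 and MID49, which bind DRP1 at the outer membrane. *Mief1* (ENSMUSG00000022412, chromosome 15 from 80234018 to 80253371, plus strand) was the lowest of the 10 genes, between 19.5 CPM in AHRmKO mouse 22 and 22.7 CPM in AHRmKO mouse 34, so that the AHRfl/fl mice lay inside the AHRmKO range. Its means were 21 ± 0.864 CPM (SD, n = 5) in AHRfl/fl and 20.9 ± 1.17 CPM (SD, n = 5) in AHRmKO muscle, with a log2 difference of -0.006 between genotypes (standard error 0.0628, 95% interval -0.14 to 0.13). Neither test passed (adjusted p = 0.994, edgeR; exact permutation p = 0.897, two-sided). A coding gene on the same strand, *AC140267.1*, shares 213 nt of its exons, or 2.63%. *Mief2* (ENSMUSG00000018599, chromosome 11 from 60728398 to 60732951, plus strand) varied most within AHRmKO muscle, from 89.6 CPM in mouse 8 to 122 CPM in mouse 19, with AHRfl/fl mice between 101 and 119 CPM. Its means were 108 ± 7.35 CPM (SD, n = 5) in AHRfl/fl and 104 ± 12.3 CPM (SD, n = 5) in AHRmKO muscle, with a log2 difference of -0.05 between genotypes (standard error 0.0831, 95% interval -0.23 to 0.13). *Mief2* did not pass either test (adjusted p = 0.949, edgeR; exact permutation p = 0.556, two-sided). With AHRmKO mouse 19 left out its log2 fold change was -0.11 and with AHRmKO mouse 8 left out -0.0003. It was -0.01 without AHRfl/fl mouse 13 and -0.03 without AHRmKO mouse 34.

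**Figure D2:**
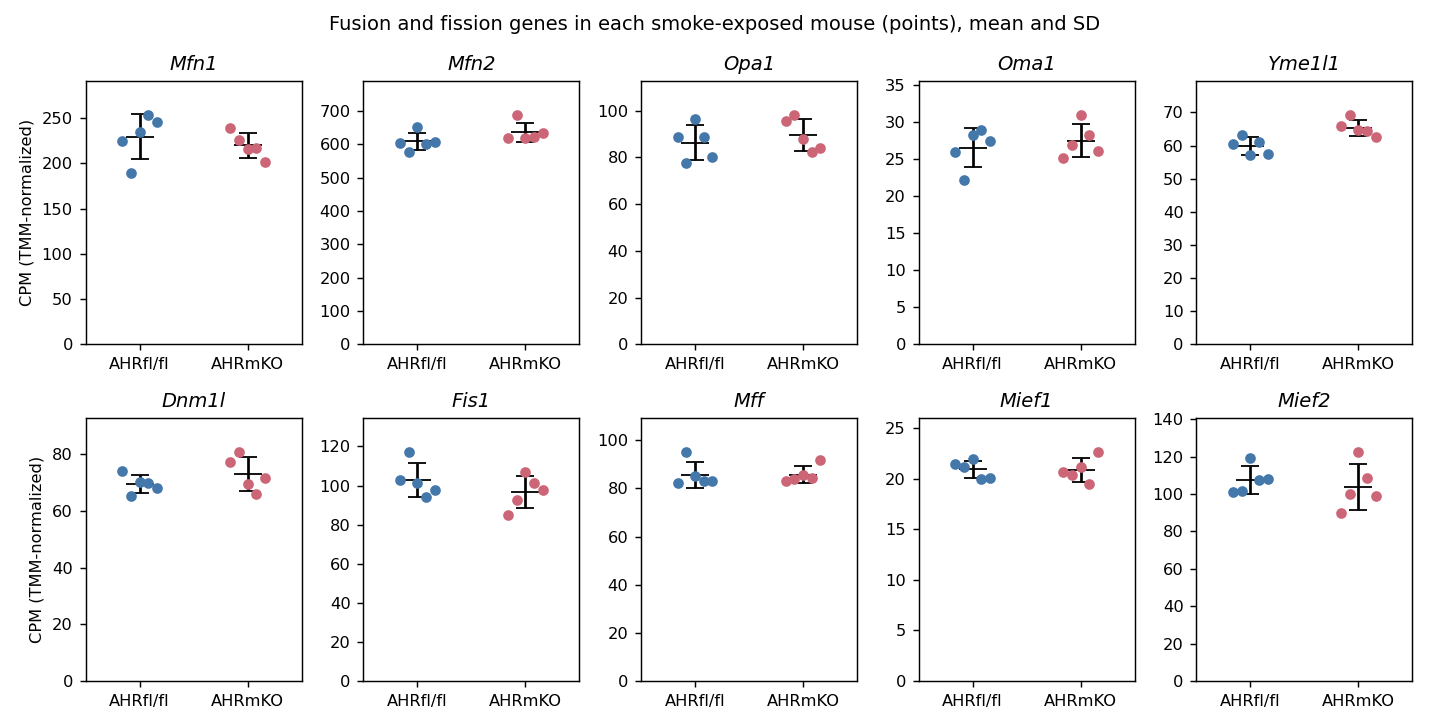
TMM-normalized CPM of each fusion and fission gene (vertical axes, each starting at 0) in AHRfl/fl (blue) and AHRmKO (red) mice. Points are single mice, and the bars give the mean and SD of 5 mice. The genotypes overlap in every panel, and in *Yme1l1* only AHRmKO mouse 34, at 62.6 CPM, lies below the highest AHRfl/fl mouse, at 63.3 CPM.

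Between genes, levels were compared as CPM per kb of exon length over all 10 mice. *Mfn2* was highest, at 119.8 ± 5.8 CPM per kb (SD, n = 10), above 97.9% of the genes tested. *Fis1* followed at 58.1 ± 5.06 CPM per kb. *Mief2* at 38.9 ± 3.59 and *Mfn1* at 36.7 ± 3.21 CPM per kb did not separate, since *Mief2* was the higher in 6 of the 10 mice. *Dnm1l* at 13.7, *Oma1* at 12.6 and *Opa1* at 11.2 CPM per kb formed a lower group, in which *Dnm1l* was above *Oma1* in 7 mice and *Oma1* above *Opa1* in 9. *Mff* at 8.78 and *Yme1l1* at 7.82 CPM per kb came next, and *Mief1* was lowest at 2.58 CPM per kb, above 55.7% of the genes tested. The receptors thus ran from near the top of this order to its end, while both proteases were in its lower part. The order depended on the length used. With the longest principal transcript in place of all exons, a setting chosen after seeing the data, *Mff* was at 45.3 CPM per kb and in the fourth place, *Fis1* was at 127, and *Mfn2* stayed first at 143.

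**Figure D3:**
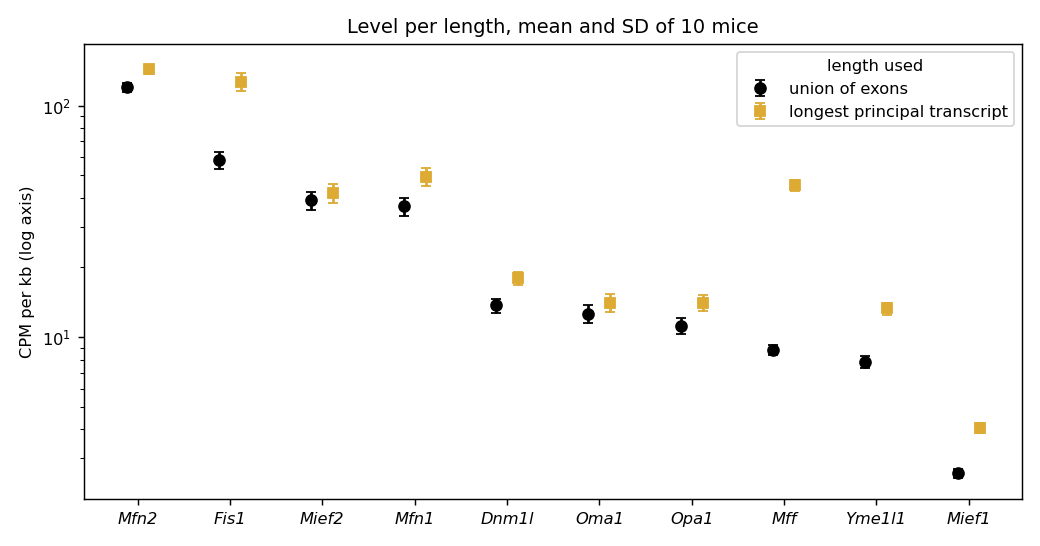
Level of each fusion and fission gene per kb of length (log axis), mean and SD of the 10 mice, in order of the level per kb of all exons (black circles), with the level per kb of the longest principal transcript beside it (yellow squares). *Mfn2* is first with either length and *Mief1* is last with either. *Mff* moves most in rank, from 8 (8.78 CPM per kb) to 4 (45.3 CPM per kb).

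Single mice stood out in several genes at once. AHRfl/fl mouse 12 was the lowest of all 10 mice in *Mfn1*, *Mfn2*, *Opa1*, *Oma1* and *Dnm1l* and the highest in *Fis1* and *Mff*. It also had the lowest slow-fibre score of the 10 mice, 2.42 as the mean log2 CPM of the 8 slow-fibre markers, where the others were between 3.84 and 7.97. AHRmKO mouse 9, with the score of 3.84, was the highest in *Mfn2*, *Opa1*, *Yme1l1* and *Dnm1l*. AHRmKO mouse 8, with the highest score, was lowest in *Fis1* and *Mief2*. The mean log2 CPM of *Mfn1*, *Mfn2* and *Opa1* minus that of *Dnm1l*, *Fis1* and *Mff* was 1.18 in AHRfl/fl mouse 12 and between 1.35 and 1.57 in the other 9 mice. As a description, this difference was 1.43 ± 0.147 (SD, n = 5) in AHRfl/fl and 1.46 ± 0.0894 (SD, n = 5) in AHRmKO muscle. The part of fibre composition in these single-mouse values was not tested.

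**Figure D4:**
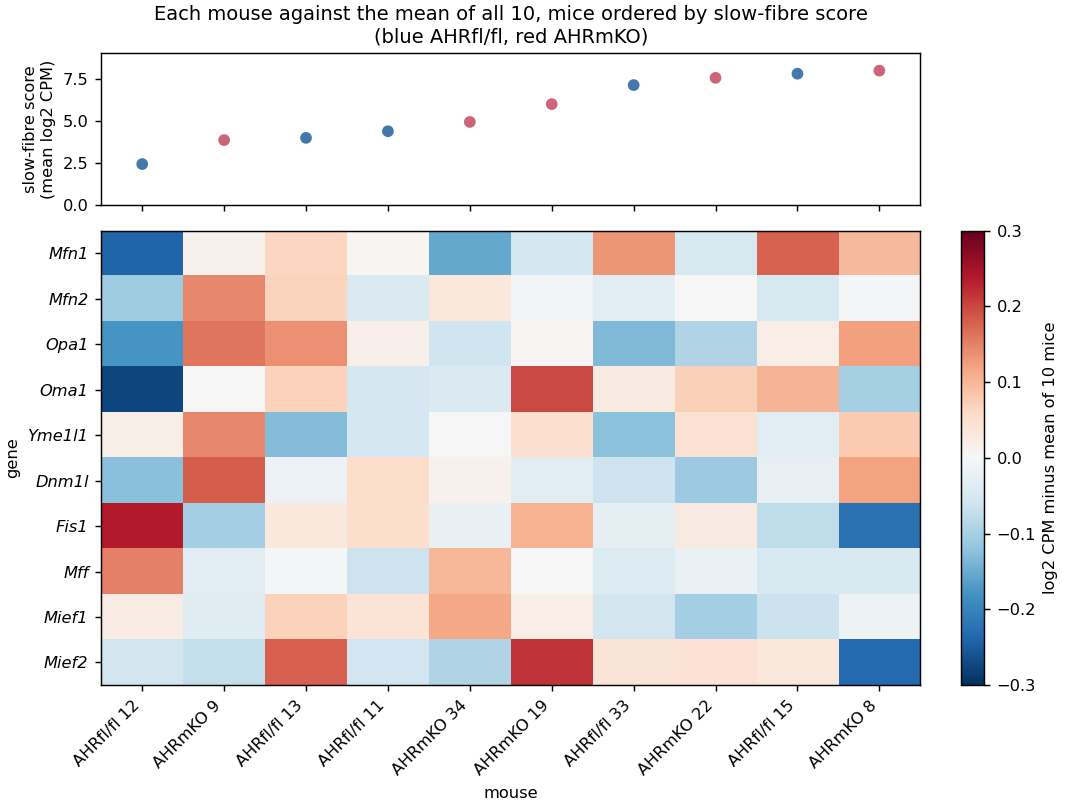
Upper panel, slow-fibre score (mean log2 CPM of 8 slow-fibre markers) of each mouse, AHRfl/fl in blue and AHRmKO in red. Lower panel, log2 CPM of each fusion and fission gene minus its mean over the 10 mice, with mice ordered by the score. AHRfl/fl mouse 12, at the left with a score of 2.42, is low in 5 genes and high in *Fis1* and *Mff*, and the genotypes are mixed along the order.

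Whether the genes varied together across the 10 mice was described by 14 relations of log2 CPM with the genotype means removed, as Pearson's r and Spearman's rho. None had an adjusted p under 0.05, and the 2 values of a mouse share 1 library and its normalization. The fusion genes *Mfn2* and *Opa1* had r = 0.708 (permutation test, p = 0.0165, adjusted p = 0.14) and rho = 0.527 (p = 0.123 by permutation, adjusted p = 0.266). Without AHRfl/fl mouse 13 and AHRmKO mouse 9, the farthest in *Mfn2*, r was 0.241, so the relation rested on those mice. The mitofusins themselves had r = 0.35 (permutation test, p = 0.319, adjusted p = 0.446) and rho = 0.333 (p = 0.347 by permutation, adjusted p = 0.486), with r = 0.132 without the 2 mice farthest in *Mfn1*. *Dnm1l* and its receptor *Fis1* had r = -0.656 (permutation test, p = 0.0403, adjusted p = 0.188) and rho = -0.624 (p = 0.0605 by permutation, adjusted p = 0.266), and r was -0.734 without AHRmKO mice 9 and 22. *Oma1* and the mean of 6 mitochondrial content genes (*Cs* and the subunit genes *Ndufb8*, *Sdhb*, *Uqcrc2*, *mt-Co1* and *Atp5a1*) had r = 0.716 (permutation test, p = 0.020, adjusted p = 0.14) and rho = 0.661 (p = 0.0433 by permutation, adjusted p = 0.266). Without AHRfl/fl mouse 12 and AHRmKO mouse 34 r was 0.382, so this relation also rested on those mice. *Fis1* and the slow-fibre score had r = -0.569 (permutation test, p = 0.0877, adjusted p = 0.231) and rho = -0.564 (p = 0.0948 by permutation, adjusted p = 0.266), with r = -0.413 without AHRfl/fl mice 15 and 33. *Opa1* and *Yme1l1*, a substrate and its protease, had r = 0.0898 (permutation test, p = 0.80, adjusted p = 0.861) and rho = -0.0424 (p = 0.919 by permutation, adjusted p = 0.919), but r was 0.885 without AHRfl/fl mice 12 and 13, so that these mice decided the value.

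For 4 of the genes, the genes with the most similar pattern were taken by Pearson's r of log2 CPM over the 10 mice, with genotype means removed, among 6968 other genes with a mean of at least 10 CPM. With so many genes and 10 mice, high values are found by search, and they are given as a description. *Mfn1* was closest to *Akap1*, the anchor of protein kinase A at the outer membrane (r = 0.984), *Cpt1b*, the muscle carnitine palmitoyltransferase (r = 0.983), and *Myom3*, a myomesin of the sarcomere (r = 0.978). *Mfn2* was closest to *Myoz3*, a Z-disc protein (r = 0.942), *Nmrk2*, a nicotinamide riboside kinase (r = 0.927), and *Fip1l1*, a polyadenylation factor (r = 0.884). *Opa1* was closest to *Lin7c* (r = 0.941), *Ckap5* (r = 0.925) and *9430091E24Rik* (r = 0.923). *Dnm1l* was closest to *Ireb2*, an iron regulatory protein (r = 0.965), *Rrm2b*, a ribonucleotide reductase subunit (r = 0.96), and *Napepld* (r = 0.953). The 2 mitofusins had no gene in common among these.

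The wider machinery of mitochondrial dynamics was read from a list of 39 further genes, of which 37 had enough counts to be tested. With edgeR, 0 of the 37 passed the threshold of 0.05 after adjustment and 0 before it, against 0.0068% and 6.61% of all genes, and DESeq2 and limma-voom also passed 0 at the adjusted threshold. The count before adjustment was 3 at most over the alternatives (without AHRmKO mouse 34), beside 1139 of all 14962 genes in that setting. It was 2 with the slow-fibre covariate, beside 1124 of 14714. By sign, 14 were higher and 23 lower in AHRmKO muscle, with a median log2 fold change of -0.02 and a range from -0.13 to 0.30. The lowest unadjusted p was 0.0903, for *Htra2*, a serine protease of the intermembrane space, named after its values were seen, which was at 14.8 ± 1.17 CPM (SD, n = 5) in AHRfl/fl and 16.4 ± 1.59 CPM (SD, n = 5) in AHRmKO muscle, a log2 fold change of 0.15 (adjusted p = 0.794, edgeR). *Pld6* and *Mtfr2* had at most 7 counts per mouse, and a difference in them was not detectable at this depth. The list of 8 other mitochondrial proteases and prohibitins, to which *Htra2* belongs, had a median of -0.02, with 3 higher and 5 lower. The 8 tested fission factors besides the 10 genes had a median of 0.02, the 8 genes of the cristae organizing complex and its partners -0.04, the 4 genes of mitochondrial transport -0.0004, the 3 tested outer membrane fusion factors -0.05, and the 6 ligases, kinases and anchors -0.10. The 6 mitochondrial content genes had 3 higher and 3 lower, 0 past either threshold, and a median of -0.0026.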

How the data were processed

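The gastrocnemius of 10 male mice was profiled by bulk RNA-seq. Per the labels and the study's methods, the authors trimmed reads with Trimmomatic 0.36, aligned them to GRCm38 with STAR 2.5.2b and deposited raw counts per gene, which were not normalized. Library strand is not given in the sources used here. Of the 49315 gene IDs, 99.47% matched the GENCODE annotation in hand.

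Genes were tested with edgeR 4.0.16 (R 4.3.3) by the quasi-likelihood test with TMM normalization, robust dispersions and filterByExpr (minimum count 10, minimum total 15), and p-values were adjusted by Benjamini-Hochberg over 14714 genes. Single genes were also compared by an exact permutation test of log2 CPM (prior count 2, 252 assignments, two-sided), and correlations used a permutation test with 100000 resamples. Totals were 30393035 to 37954388 counts per mouse, and counting error is given beside the spread. The edgeR script was tested on simulated data. Alternatives were DESeq2 1.42.0, limma-voom (limma 3.58.1), other normalizations and filters, 1 surrogate variable (sva 3.50.0), a slow-fibre covariate and leaving out each mouse. The genes and all lists were chosen with earlier results of these data known. All 10 fusion and fission genes were named, and for 4 of them the 3 genes most alike. Mice are separate animals by their labelled numbers.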

Additional observations from a re-analysis of the deposited data

Results flagged for a closer look

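In 20 sets of 5 mice (10 genes in each genotype), 1 mouse stood far from the others of its genotype in 2 cases, and chance gives about 1 in 20. In *Mfn2*, AHRmKO mouse 9 was the highest. On the scale of log2 CPM, its gap to the next mouse was 0.7461 of the AHRmKO range, where Dixon's critical value is 0.71. In *Mff*, AHRfl/fl mouse 12 was the highest, with a gap of 0.7437 of the AHRfl/fl range on the same scale. Without these mice the log2 fold changes were 0.04 for *Mfn2* and 0.04 for *Mff*, neither of which passed edgeR's test.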

How the results depend on the processing

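None of the 10 fusion and fission genes and none of the 37 wider genes passed an adjusted p under 0.05 in any of the alternatives run. The number of all genes that passed was 1 in edgeR's test, 21 with DESeq2, 5 with no filter and 2 with the slow-fibre covariate, and it ran from 1 to 6 when 1 mouse was left out (6 without AHRmKO mouse 34). The cause of these differences was not tested. Before adjustment, the number of the 37 wider genes past 0.05 was 0 in edgeR's test, beside 972 of all 14714 genes. With 1 surrogate variable it was 1, beside 1340 of 14714, and with the slow-fibre covariate 2, beside 1124 of 14714. It was 2 without AHRfl/fl mouse 12 (971 of 14938 genes) and 2 without AHRfl/fl mouse 33 (957 of 14875). Without AHRmKO mouse 34 it was 3, beside 1139 of 14962. The median log2 fold change of the 10 genes stayed between 0.0049 and 0.0281 over the other settings and between 0.006 and 0.0409 when a mouse was left out. Signs turned in *Mff*, *Mief1* and *Oma1*, and not in the other 7 genes. *Mff* was at 0.0002 with DESeq2, 0.0008 with limma-voom, 0.0021 with no filter, 0.0216 with the slow-fibre covariate and 0.0176 with 1 surrogate variable, and at -0.0262 to 0.0392 when a mouse was left out. *Mief1* was at 0.014 with the slow-fibre covariate and 0.0087 with 1 surrogate variable, and at -0.0373 to 0.018 when a mouse was left out. *Oma1* was at -0.0089 to 0.0818 when a mouse was left out. With library size alone *Mff* was at -0.0175 and *Mief1* at -0.0239. Of the other genes, the slow-fibre covariate moved *Mfn1* to -0.0999, *Fis1* to -0.0513 and *Oma1* to 0.0257, each by over 1.5 times. Mice could not be paired by litter in any fit. The study took its Cre-negative controls from the litters of AHRmKO mice, and no litter is named for the mice sequenced.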

Other observations

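The regulators of mitochondrial biogenesis, which are known to act on several mitochondrial genes in muscle, were lower by sign in AHRmKO muscle in 6 of 6 cases, beside 7133 of the 14714 genes tested. In edgeR's test 0 of 6 passed an adjusted p under 0.05, beside 0.0068% of all genes, and 1 of 6 an unadjusted p under 0.05, beside 6.61%. *Esrra*, which encodes the estrogen-related receptor alpha and is named after its values were seen, was the 1 gene past the unadjusted threshold (adjusted p = 0.665, edgeR's test). It was at 144 ± 8.40 CPM (SD, n = 5) in AHRfl/fl and 129 ± 3.42 CPM (SD, n = 5) in AHRmKO muscle, a log2 fold change of -0.15, and the genotypes overlapped. *Ppargc1a*, the coactivator PGC-1 alpha, was at 60.0 ± 21.2 and 59.5 ± 18.3 CPM (SD, n = 5 each), with a log2 fold change of -0.01. Some marker lists also fell wholly on 1 side, with no gene past either threshold. All 8 slow-fibre, 5 endothelial and 5 erythroid markers were higher by sign in AHRmKO muscle, and all 4 Schwann cell markers were lower. The tested fast-fibre, adipocyte, macrophage, fibroblast and satellite cell markers held both signs. The part of fibre and cell composition in these signs was not tested.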
